A study of Mus musculus with 56 samples.

Results

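Proteobacteria were described in the gut contents of wild-type mice and of mice lacking the melanocortin 4 receptor (MC4R), from sequences of the bacterial 16S rRNA gene. Members were all amplicon sequence variants (ASVs, exact sequence types) that the deposited table assigned to the phylum Proteobacteria, 19 of 938 ASVs. Of these, 16 had counts in at least 1 library, against 864 ASVs of the whole table. They held 6 ASVs of Desulfovibrionaceae (Deltaproteobacteria), 2 of Alcaligenaceae (Betaproteobacteria, both of the genus Sutterella), 4 of Enterobacteriaceae (the only family of Gammaproteobacteria), 5 of Alphaproteobacteria and 2 without a class. The 3 ASVs without any count were both of those without a class and 1 of the genus Sphingomonas.

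The methods of the study give male C57BL/6J wild-type (WT) mice as purchased and male MC4R knockout (KO) mice as generated by an earlier procedure, whereas its discussion states that both genotypes were bred and kept under the same specific-pathogen-free conditions. The labels do not name WT mice as littermates of KO mice, so that genotype and the origin of the mice cannot be told apart. All mice ate chow and then normal diet in the same room before they were allocated to normal diet (ND) or Western diet (WD), a purified diet rich in fat, sugar and cholesterol, at 10 weeks of age, kept 1 per cage for 12 weeks. There were 6 mice each in WT-ND and WT-WD and 8 mice each in KO-ND and KO-WD, the last of which is a model of steatohepatitis. Contents of a short stretch below the midpoint of the small intestine (SI) and of the large intestine (LI) gave 2 libraries per mouse, 56 in all.

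Total counts were 22550 to 35236 per library (median 29721), and a value is given below as the share of this total. The SI libraries held 15 to 104 ASVs and the LI libraries 75 to 178. One SI library, KO-ND replicate 5, stood apart with 104 ASVs against at most 37 in the other KO-ND SI libraries, and results that rest on it are given with and without it. Where all libraries of a group had 0 counts, the upper limit given is 3 counts of their summed total, a limit that covers counting error only. PCR reads are not independent molecules, and shares say nothing of the absolute number of bacteria, so that a higher share of a taxon and a lower amount of all others cannot be told apart.

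Proteobacteria are a minor phylum of the healthy mouse gut, and its families live by different means. Desulfovibrionaceae are strict anaerobes of the mucus layer and lumen, many of which respire sulfate or, in the case of Bilophila, sulfite released from taurine, with hydrogen sulfide as the product, and they take up hydrogen made by fermenting neighbours. Enterobacteriaceae, with Escherichia coli, tolerate oxygen and grow on simple sugars. Sutterella are anaerobic or microaerophilic commensals, and RF32 is an uncultured order of Alphaproteobacteria.

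In the LI, the phylum was made of different bacteria in the 2 genotypes. Over all libraries, Desulfovibrionaceae made up 17122 of 18033 Proteobacteria counts (94.9%), and 1 of its ASVs, ASV_013, made up 16973 (94.1%). In the LI of KO mice, Desulfovibrionaceae held 97.3% of the phylum. In the LI of WT mice they held 0%, and all 106 Proteobacteria counts were of Enterobacteriaceae, 101 of them of E. coli. The SI of KO-WD mice did not show this split, since Enterobacteriaceae held 57.0% of their 142 Proteobacteria counts, against 96.1% of the 181 of WT mice. On normal diet alone, Enterobacteriaceae held 70.8% of the 24 counts of WT-ND mice and 1.90% of the 210 of KO-ND mice. Desulfovibrionaceae held 92.4% of the KO-ND counts but 1.41% of the KO-WD counts. These pooled values rest on few mice. In KO-ND mice, 194 counts of the family came from 3 of 8 mice, 135 of them from replicate 7. In KO-WD mice, its 2 counts came from 1 of 8 mice, and the 81 counts of Enterobacteriaceae came from 3 of 8. Proteobacteria of some kind were counted in 9 of 12 WT mice and in 16 of 16 KO mice. The map of counts shows both sites, with the upper rows filled only in KO libraries and the row of E. coli filled mainly in WT libraries.

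**Figure D1:**
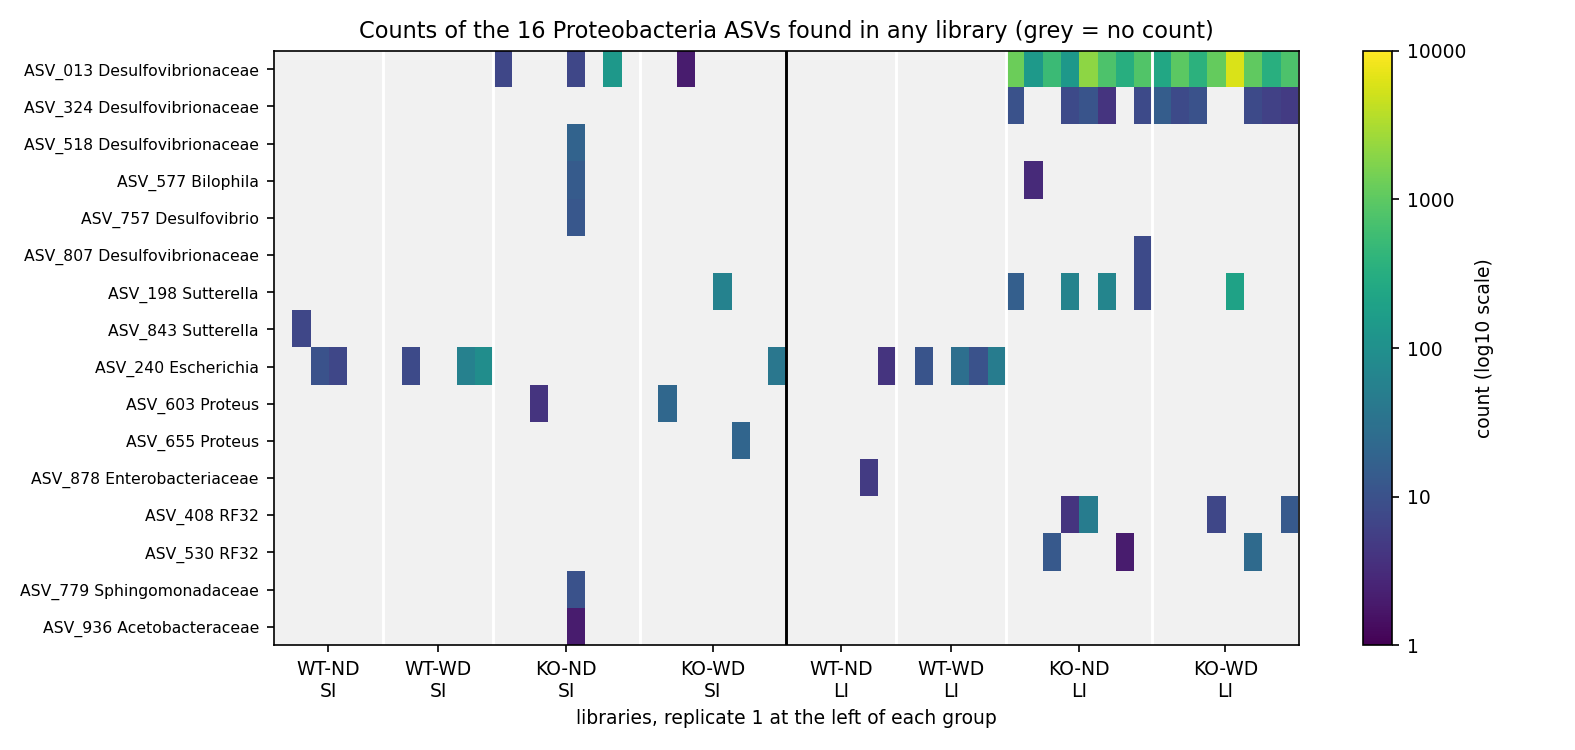
Counts of the 16 Proteobacteria ASVs with any count (rows, ordered by family) in each of 56 libraries (columns, by site and group), with colour on a log10 scale and grey for no count. ASV_013 fills all 16 KO LI columns and no WT column, while ASV_240 (E. coli) has counts in 10 WT libraries and in 1 KO library.

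Desulfovibrionaceae were absent from the counts of every WT library and present in the LI of every KO mouse. In 24 WT libraries with 740394 counts together, 0 counts were of this family. By counting error alone this allows a share of up to 0.000405%, and more if single reads were not kept. In the LI of KO-ND mice the share was lowest in replicate 4 (0.462%), had a median of 2.07% and was highest in replicate 5 (6.48%), with a mean of 2.50% ± 2.04 (SD, n = 8). In the LI of KO-WD mice it ran from 0.918% in replicate 1 over a median of 3.13% to 16.6% in replicate 5, with a mean of 4.33% ± 5.15 (SD, n = 8). No KO LI library overlapped with any WT LI library. Such a full separation, higher in KO, held for 1 of 39 families with counts in the LI (2.56%), which was this family, and for 2 of 785 ASVs (0.255%), which were ASV_013 and an ASV of Bacteroides. In the SI it held for 0 of 36 families and 0 of 343 ASVs. The other way, all WT libraries lay above all KO libraries in the LI for 1 of 39 families and 4 of 785 ASVs.

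The differences between genotypes in the LI passed the test. KO-ND mice had a mean share at least 1507-fold higher than that of WT-ND mice, taking 3 counts over the WT-ND group as the bound. This difference passed (adjusted p = 2.85e-05, edgeR's quasi-likelihood test with Benjamini-Hochberg adjustment over all families tested). KO-WD mice had a share at least 2603-fold higher than WT-ND mice (edgeR, adjusted p = 4.66e-05). Against WT-WD mice, on the same diet, the KO-WD share was at least 2777-fold higher (edgeR, adjusted p = 1.69e-05). Without KO-WD replicate 5, the bounds of KO-WD mice were 1545-fold against WT-ND and 1648-fold against WT-WD. All these bounds leave out the spread between KO mice. With it, edgeR's lower 95% limit was 897-fold for KO-ND against WT-ND mice. For KO-WD mice the lower limit was 1185-fold against WT-ND and 1241-fold against WT-WD. KO-ND and KO-WD mice were compared with the same 6 WT-ND mice. The adjusted p stayed at or below 1.80e-04 when any library was left out. Of all families tested, 32.1% passed for KO-ND against WT-ND mice, 28% for KO-WD against WT-ND mice and 40.7% for KO-WD against WT-WD mice in the LI.

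Diet made no difference to Desulfovibrionaceae in the LI that exceeded the spread between KO mice. The log2 fold change of KO-WD over KO-ND was 0.79 (SE 0.70, edgeR, adjusted p = 0.580), with a 95% interval of -0.68 to 2.26 that leaves room for a 4.78-fold rise. KO-WD replicate 5 set much of the difference in means, since the mean of the other 7 KO-WD mice was 2.57%. All shares of KO-ND mice except the 2 lowest lay within the range of KO-WD mice. Of all families in this comparison, 0% of 27 passed. The interaction of genotype and diet could not be estimated for this family, because both WT groups had 0 counts.

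**Figure D2:**
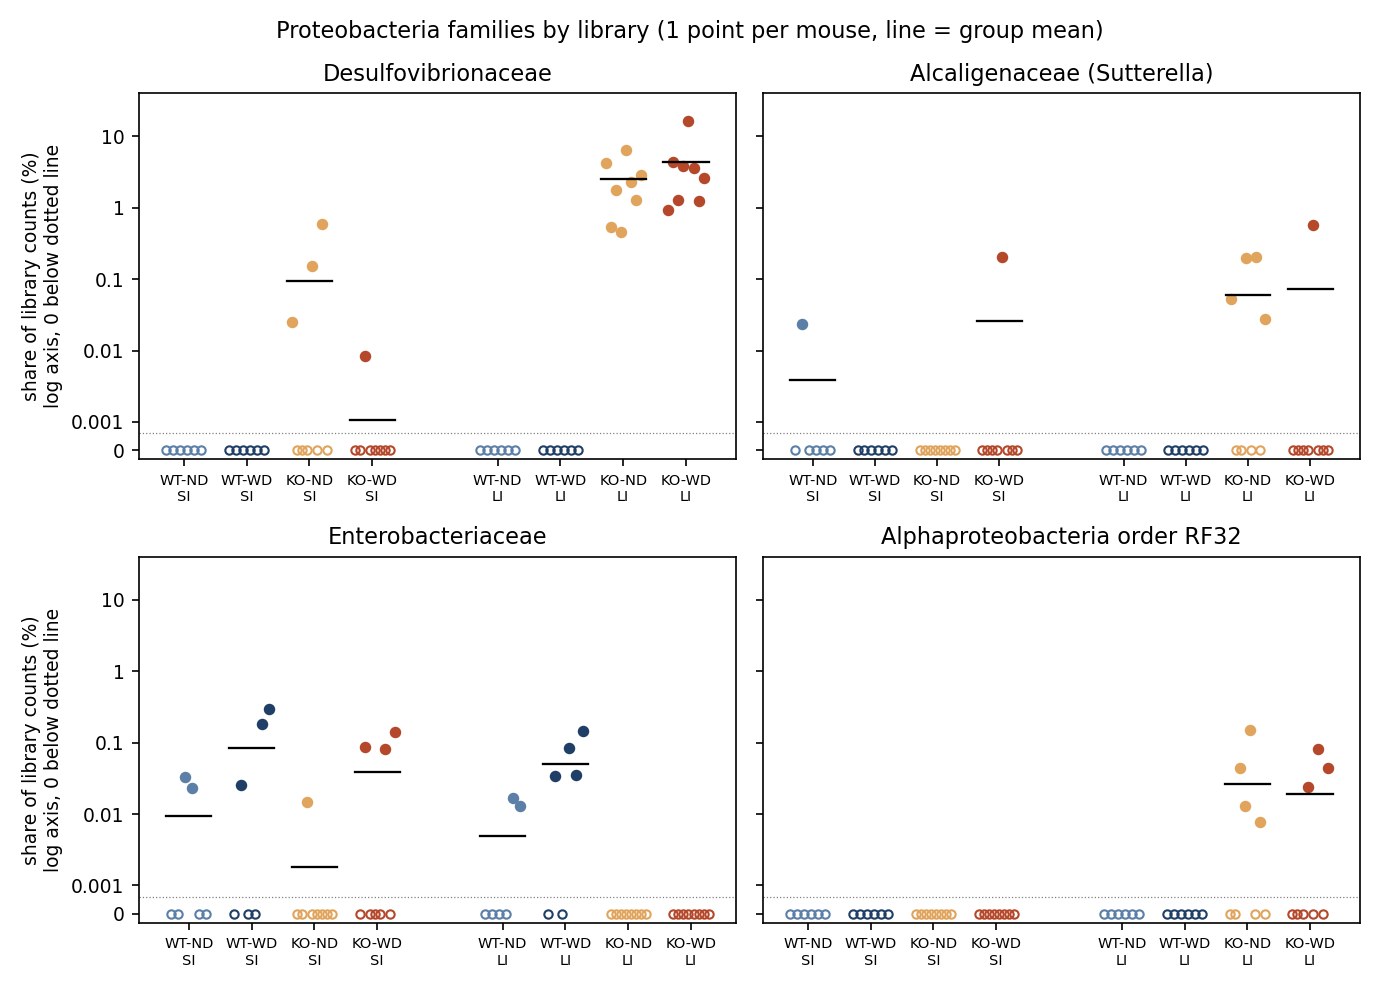
Share of library counts (log axis, in percent) of 4 Proteobacteria taxa, with 1 point per mouse in each group and site, open points for 0 and a line at the group mean. Desulfovibrionaceae fill both KO groups in the LI, between 0.462% and 16.6%, and are at 0 in all WT libraries, whereas Enterobacteriaceae are at 0 in all KO LI libraries.

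A single ASV carried almost all of the family. ASV_013, which the table named no further than Desulfovibrionaceae, had 136 to 2067 counts in the LI of KO-ND mice and 248 to 5860 in the LI of KO-WD mice. It was the 3rd to 20th most abundant ASV of its library, with a median rank of 8. In KO-WD replicate 5, where it reached 16.6%, only 2 ASVs were more abundant and the library held 75 ASVs, the fewest of all LI libraries. Its share was at least 1494-fold higher in KO-ND than in WT-ND mice (edgeR, adjusted p = 2.83e-05 over all ASVs tested), at least 2588-fold higher in KO-WD than in WT-ND mice (adjusted p = 3.41e-05) and at least 2762-fold higher in KO-WD than in WT-WD mice (adjusted p = 5.26e-05). Without KO-WD replicate 5, the last 2 bounds were 1529-fold and 1631-fold. For the comparisons in the order given, edgeR's lower 95% limits were 812-fold, 1025-fold and 1109-fold. Between KO-WD and KO-ND mice its log2 fold change was 0.79 (SE 0.94, edgeR, adjusted p = 0.968).

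A second ASV of the family, ASV_324, was found in 11 of 16 KO LI libraries and nowhere else. Its counts were 4 to 11 in 5 KO-ND libraries and 5 to 15 in 6 KO-WD libraries, and its mean share was 0.0166% ± 0.0153 (SD, n = 8) and 0.0235% ± 0.0179 (SD, n = 8). In KO-WD mice this was at least 14.1-fold higher than in WT-ND mice (edgeR, adjusted p = 0.00697) and at least 15.1-fold higher than in WT-WD mice (edgeR, adjusted p = 0.0117). The lower 95% limits of edgeR for these 2 comparisons were 5.32-fold and 4.57-fold. ASV_324 was too rare to be tested between KO-ND and WT-ND mice. Between KO-WD and KO-ND mice the log2 fold change was 0.48 (SE 1.59, edgeR, adjusted p = 0.994).

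ASV_324 did not keep a fixed ratio to ASV_013. Per 100 counts of ASV_013 there were 0 to 6.05 counts of ASV_324, with a median of 0.708. KO-WD replicate 5 had 5860 counts of ASV_013 and 0 of ASV_324, while KO-WD replicate 1 had 248 and 15. Over the 8 libraries of a group, Spearman's rho between the 2 counts was 0.68 in KO-ND and -0.72 in KO-WD mice, given as a description of few and low counts that share a library total.

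**Figure D3:**
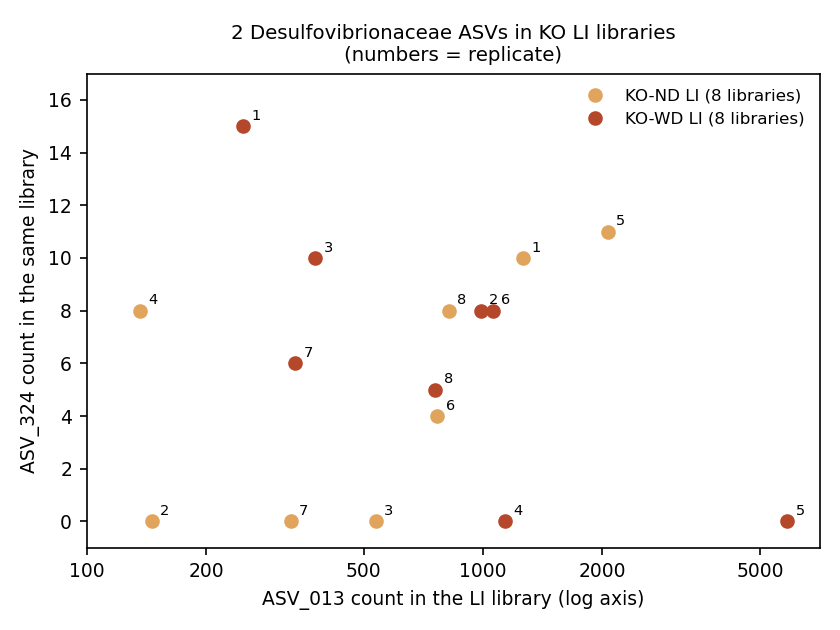
Counts of ASV_324 against counts of ASV_013 (log axis) in the 16 KO LI libraries, with replicate numbers beside the points. The KO-WD library with 5860 counts of ASV_013 has 0 of ASV_324, and the library with the most ASV_324 (15) has 248 of ASV_013.

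Of the Proteobacteria ASVs, 2 of 19 were abundant enough to be tested in the LI for KO-WD against WT-ND mice (ASV_013 and ASV_324) and both passed, where 47.9% of all ASVs did. For KO-ND against WT-ND mice, ASV_013 and ASV_198 of Sutterella were tested and passed, against 52.2% of all ASVs. For KO-WD against WT-WD mice, ASV_013 and ASV_324 rose and ASV_240 (E. coli) fell, all 3 that were tested, against 45.1% of all ASVs. For KO-WD against KO-ND mice, 4 were tested (ASV_013, ASV_324, ASV_198 and ASV_408) and 0 passed, also at an unadjusted p under 0.05, while 2.66% of all ASVs did. A filter on abundance lets an ASV through because it is high in 1 group, so these shares say nothing about the members as a set.

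The other 4 Desulfovibrionaceae ASVs were rare, and they are named here after their values were seen. ASV_577 was the only Bilophila, a genus known to grow on taurine released from bile acids, with 14 counts in the SI of KO-ND replicate 5 and 3 in the LI of KO-ND replicate 2. ASV_757 was the only ASV named Desulfovibrio, with 12 counts in the SI of KO-ND replicate 5. ASV_518 had 19 counts in that same library, and ASV_807 had 8 in the LI of KO-ND replicate 8. None of these 4 had a count in a KO-WD library.

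In the SI of KO mice, Desulfovibrionaceae were sparse and came from few mice. ASV_013 was counted in 3 of 8 KO-ND mice, with 7 counts in replicate 1, 7 in replicate 5 and 135 in replicate 7, and in 1 of 8 KO-WD mice, with 2 counts in replicate 3. The family's mean share was 0.0957% ± 0.205 (SD, n = 8) in KO-ND and 0.00105% ± 0.00297 (SD, n = 8) in KO-WD mice, and the groups overlapped at 0. The log2 fold change of KO-WD over KO-ND was -6.0 (SE 2.15), which did not pass (edgeR, adjusted p = 0.0603). Of all families in this comparison, 0% of 18 passed, although both Proteobacteria families tested, this one and Enterobacteriaceae, were under 0.05 before adjustment. The adjusted p was 0.0483 when KO-ND replicate 4, a library with 0 counts of the family, was left out, and without any of the 4 libraries that held the family it was too rare to be tested. Among ASVs, ASV_013 did not pass either (log2 fold change -5.73, SE 2.26, adjusted p = 0.0925), where 12.8% of all ASVs did.

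The family was too rare to be tested in the SI against WT mice. KO-ND replicate 5 held 52 of the 194 SI counts of KO-ND mice, and replicate 7 held 135. Without replicate 5 the mean of KO-ND mice was 0.0874% ± 0.220 (SD, n = 7), and without replicate 7 it was 0.0255% ± 0.0573 (SD, n = 7). Replicate 5 was also the library with the most Proteobacteria ASVs, 6, of which 4 were found in no other library. Of all its ASVs, 31 were in no other SI library.

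Within KO mice, the LI held far more Desulfovibrionaceae than the SI. With the mouse as a block, the log2 fold change of LI over SI was 8.20 (SE 1.48, edgeR, adjusted p = 1.17e-04) in KO-ND and 11.56 (SE 1.13, edgeR, adjusted p = 1.51e-07) in KO-WD mice, with 8 of 8 mice higher in the LI in both groups. In KO-ND mice it was 8.79 (edgeR, adjusted p = 8.96e-04) without replicate 5, the mouse whose SI library stood apart. Most families also differed between sites, 73.1% of 26 in KO-ND and 73.1% of 26 in KO-WD mice. The gap was narrowest in KO-ND replicate 7, with 0.587% of ASV_013 in the SI and 1.27% in the LI. KO-WD replicate 5, the mouse with 16.6% in the LI, had 0 of 28774 counts in the SI, which allows up to 0.0104%. Whether the change with diet differed between sites was tested after the values were seen. The log2 difference, LI minus SI, was 3.50 (SE 1.72, edgeR with the mouse as a block, adjusted p = 0.290), and the adjusted p was 0.782 without KO-ND replicate 5 and 0.598 without KO-ND replicate 7.

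For ASV_013, the log2 fold change of LI over SI was 9.05 (SE 1.62, edgeR, adjusted p = 0.00149) in KO-ND and 11.63 (SE 1.09, edgeR, adjusted p = 4.46e-05) in KO-WD mice, while 64.8% and 48.7% of all ASVs passed. ASV_324 had 0 counts in the SI of all mice, and its difference between sites in KO-WD mice did not pass (log2 fold change 5.22, SE 2.49, edgeR, adjusted p = 0.153) and turned in direction with centred log ratios.

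**Figure D4:**
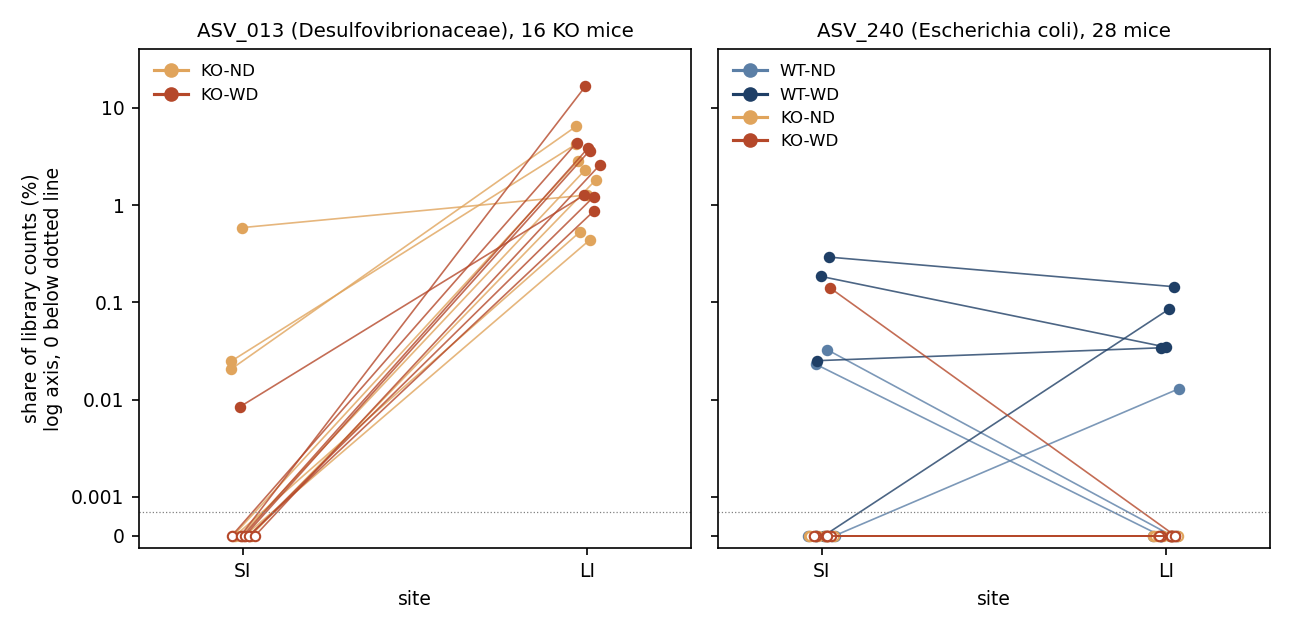
Share of library counts (log axis, in percent) of ASV_013 in 16 KO mice and of ASV_240 in 28 mice, with a line joining SI and LI of the same mouse and open points for 0. ASV_013 is higher in the LI in all 16 mice, whereas the E. coli lines run in both directions.

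Enterobacteriaceae were counted in the LI of WT mice alone, the opposite of Desulfovibrionaceae. Between genotypes in the LI, only KO-WD against WT-WD mice could be tested. In WT-ND mice the family had 9 LI counts in 2 of 6 mice, too few to be tested against either KO group. E. coli (ASV_240) was counted in 7 of 12 WT mice and in 1 of 16 KO mice. In the LI of WT-WD mice it had 11 counts in replicate 2, 29 in replicate 4, 10 in replicate 5 and 47 in replicate 6, and 0 in the other 2 mice. The family's mean share there was 0.0498% ± 0.0561 (SD, n = 6), and all 97 counts were E. coli. WT-ND mice had 4 counts of E. coli in the LI of replicate 6 and 5 counts of another ASV of the family in replicate 5, a mean of 0.00499% ± 0.00783 (SD, n = 6). All 16 KO LI libraries had 0 of 469903 counts, which allows a share of up to 0.000638%.

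The LI share of WT-WD mice was at least 38.5-fold higher than that of KO-WD mice, for the family (edgeR, adjusted p = 0.0129) and for ASV_240 (edgeR, adjusted p = 0.00870). The bound was 23.8-fold without WT-WD replicate 6, and without any of the 4 WT-WD mice that carried E. coli both were too rare to be tested. Taken as KO-WD over WT-WD, edgeR's upper 95% limit of the fold was 0.119 for the family and 0.127 for ASV_240. These limits allow a smaller difference than the bound. WT-WD over WT-ND gave a log2 fold change of 3.22 (SE 1.57, edgeR, adjusted p = 0.170) for the family, where 9.09% of families passed, and of 4.28 (SE 1.93, edgeR, adjusted p = 0.391) for ASV_240, which was under 0.05 only before adjustment, where 1.33% of ASVs passed. The change with diet in WT mice thus did not pass after adjustment. Its 95% interval was -0.18 to 6.62 for the family and 0.18 to 8.38 for ASV_240.

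In the SI, Enterobacteriaceae were found in both genotypes and no comparison that could be tested passed. For KO-ND against WT-ND mice the family was too rare to be tested. E. coli had 10 and 7 counts in 2 WT-ND mice, 8, 57 and 92 in 3 WT-WD mice and 39 in 1 KO-WD mouse. Proteus, a genus of motile urease producers, was found only in the SI of KO mice, with 4 counts in KO-ND replicate 3, 22 in KO-WD replicate 2 and 20 in KO-WD replicate 6. It was named after its values were seen, and those of replicates 2 and 6 were of different ASVs. The family's mean share was 0.00930% ± 0.0147 (SD, n = 6) in WT-ND, 0.0837% ± 0.125 (SD, n = 6) in WT-WD, 0.00183% ± 0.00518 (SD, n = 8) in KO-ND and 0.0385% ± 0.0559 (SD, n = 8) in KO-WD mice, and all groups overlapped at 0.

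The log2 fold change in the SI was 3.12 (SE 2.01, edgeR, adjusted p = 0.294) for WT-WD over WT-ND and 4.08 (SE 1.84, edgeR, adjusted p = 0.145) for KO-WD over KO-ND. It was 2.00 (SE 1.85, edgeR, adjusted p = 0.362) for KO-WD over WT-ND and -1.11 (SE 1.75, edgeR, adjusted p = 0.595) for KO-WD over WT-WD, a direction that turned under other scalings. Of all families, 0% of 19, 0% of 18, 33.3% of 15 and 55.6% of 18 passed in these comparisons. For ASV_240 the adjusted p was 0.662 for WT-WD over WT-ND, where 0% of 66 ASVs passed, and 0.326 for KO-WD over WT-WD, where 61.5% did. The interaction of genotype and diet in the SI was 0.98 on the log2 scale (SE 2.17, edgeR, adjusted p = 1.00) for the family.

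E. coli did not differ between the sites of WT-WD mice by more than the spread between mice. Of 4 WT-WD mice with E. coli, 3 had it in both sites, with 0.292% in the SI and 0.145% in the LI of replicate 6. The log2 fold change of LI over SI was 0.08 (SE 1.69, edgeR with the mouse as a block, adjusted p = 0.963), where 64% of families passed, and 0.09 (SE 1.49, adjusted p = 0.961) for ASV_240, where 44.2% of ASVs passed. The 95% interval of the family's difference, -3.27 to 3.43, leaves room for a change in either direction, and the sign of both values turned under other scalings.

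Sutterella (Alcaligenaceae) was found in the LI of KO mice alone, in few mice. ASV_198 had 16, 61, 67 and 8 counts in KO-ND replicates 1, 4, 6 and 8 and 205 counts in KO-WD replicate 5, and 0 in the other 11 KO LI libraries and in all WT libraries. The mean share was 0.0599% ± 0.0880 (SD, n = 8) in KO-ND and 0.0727% ± 0.206 (SD, n = 8) in KO-WD mice, the latter from 1 mouse. That mouse also had 59 counts in the SI, the only SI library with ASV_198, and it was the mouse with the highest LI share of ASV_013. The other Sutterella ASV had 7 counts in the SI of 1 WT-ND mouse.

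KO-ND mice had at least 36.0-fold more Alcaligenaceae in the LI than WT-ND mice (edgeR, adjusted p = 0.0338 for the family and 0.0195 for ASV_198). Counts were found in 4 of 8 KO-ND mice against 0 of 6 WT-ND mice. The bound was 23.8-fold without KO-ND replicate 6, and edgeR's lower 95% limit for the family was 4.46-fold. The family's call was lost with limma on centred log ratios (adjusted p = 0.339) and without any of WT-ND replicates 3, 4, 5 and 6 (adjusted p at most 0.0536), and without any of the 4 KO-ND mice that carried it the family was too rare to be tested. The log2 fold change of LI over SI in KO-ND mice was 6.29 (SE 1.82, edgeR, adjusted p = 0.00766), and this call was lost with DESeq2 (adjusted p = 0.683) and its direction turned with centred log ratios (adjusted p = 0.447). Exact tests could not pass for a taxon counted in 4 of 8 KO-ND mice, since the smallest two-sided p they allow is 0.125 for the exact sign-flip test between sites and 0.0849 for the exact rank-sum test of a higher share in KO-ND than in WT-ND mice. KO-WD over KO-ND in the LI gave 0.28 (SE 1.78, edgeR, adjusted p = 0.996), and -7.13 (adjusted p = 0.0703) without KO-WD replicate 5.

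Alphaproteobacteria were counted in KO mice alone. In the LI all of them belonged to RF32, with 2 ASVs that never shared a library. ASV_408 had 4 and 48 counts in KO-ND replicates 4 and 5 and 7 and 13 in KO-WD replicates 4 and 8. ASV_530, named after its values were seen, had 13 and 2 counts in KO-ND replicates 3 and 7 and 24 in KO-WD replicate 6. The mean share of RF32 was 0.0268% ± 0.0519 (SD, n = 8) in KO-ND and 0.0188% ± 0.0305 (SD, n = 8) in KO-WD mice, and 0 counts were found in 28 SI libraries and in 12 WT LI libraries. KO-ND mice had at least 16.1-fold more than WT-ND mice (edgeR, adjusted p = 0.0487), and at least 5.53-fold more without KO-ND replicate 5. The lower 95% limit of this call in edgeR was 2.65-fold. This call was lost in 6 of 6 fits without a WT-ND library (adjusted p at most 0.0742), with no filter (adjusted p = 0.0560), with limma on centred log ratios (adjusted p = 0.582) and with DESeq2 (adjusted p = 0.181). The LI of KO-ND mice had at least 19.5-fold more than the SI (edgeR, adjusted p = 0.0195), and at least 6.69-fold more without replicate 5. The lower 95% limit of that call in edgeR was 2.41-fold. That call was lost with no filter (adjusted p = 0.0708) and with DESeq2 (adjusted p = 0.768), and its direction turned with centred log ratios (adjusted p = 0.162). Without any of the 4 KO-ND mice that carried RF32 it was too rare for either test. Between KO-WD and KO-ND mice the log2 fold change was -0.50 (SE 1.52, edgeR, adjusted p = 0.996), and it turned upward with TMM factors and without KO-ND replicate 5. In the SI, the class was represented by 12 counts of 2 families, Sphingomonadaceae (10) and Acetobacteraceae (2), all in KO-ND replicate 5.

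Of other taxa that were looked for, no ASV was assigned to mitochondria or chloroplasts, or to Helicobacteraceae, a family of gut residents. Of 13 genera of soil, water and reagents on the list, the table held only the Sphingomonas ASV with 0 counts, while the Sphingomonadaceae counts given above were of an ASV without a genus. Genera known to compete for hydrogen with sulfate-respiring bacteria, Methanobrevibacter and Blautia, were not found either. Of the genera that release sulfate from mucin, Akkermansia was found in 33 libraries and Bacteroides in 30. Bacteroides rose in the LI of KO-ND against WT-ND mice (log2 fold change 3.68, SE 0.78, edgeR, adjusted p = 0.00123) and of KO-WD against WT-ND mice (4.45, SE 1.03, edgeR, adjusted p = 0.00349), and also of KO-WD against WT-WD mice (3.42, SE 1.26, edgeR, adjusted p = 0.0466). Akkermansia gave 1.66 (SE 2.15, edgeR, adjusted p = 0.584) and 1.72 (SE 2.02, edgeR, adjusted p = 0.548) in the LI against WT-ND mice. For KO-WD against WT-WD mice it gave -2.53 (SE 1.77, edgeR, adjusted p = 0.297) in the LI, and in the SI it fell (-5.46, SE 1.85, edgeR, adjusted p = 0.0160).

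Among 19 other families with a mean LI share of at least 0.1%, the share of Bacteroidaceae was the most like that of Desulfovibrionaceae over 28 LI libraries, with Spearman's rho of 0.82. [Paraprevotellaceae] (0.74), [Odoribacteraceae] (0.73), Lactobacillaceae (0.49) and Clostridiaceae (0.36) followed, and Peptococcaceae (-0.75), Streptococcaceae (-0.71) and Erysipelotrichaceae (-0.50) were the least alike. All 12 WT libraries were tied at 0 for Desulfovibrionaceae, so that these values follow any difference between genotypes, and shares of 1 library also constrain each other. Within the 16 KO LI libraries rho was 0.68 for Bacteroidaceae, 0.07 for [Paraprevotellaceae] and 0.19 for [Odoribacteraceae], and it was -0.77 for Bifidobacteriaceae, whose rho over all LI libraries was -0.10 and which were named after these values were seen. The 16 KO libraries pool both diets, so that their values also follow any difference between KO-ND and KO-WD mice. Bifidobacteriaceae had a mean LI share of 7.66% in KO-ND and 2.31% in KO-WD mice. [Paraprevotellaceae] and [Odoribacteraceae] shared with Desulfovibrionaceae that they had 0 counts in every WT LI library. They were missing from 1 and 3 KO LI libraries.

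**Figure D5:**
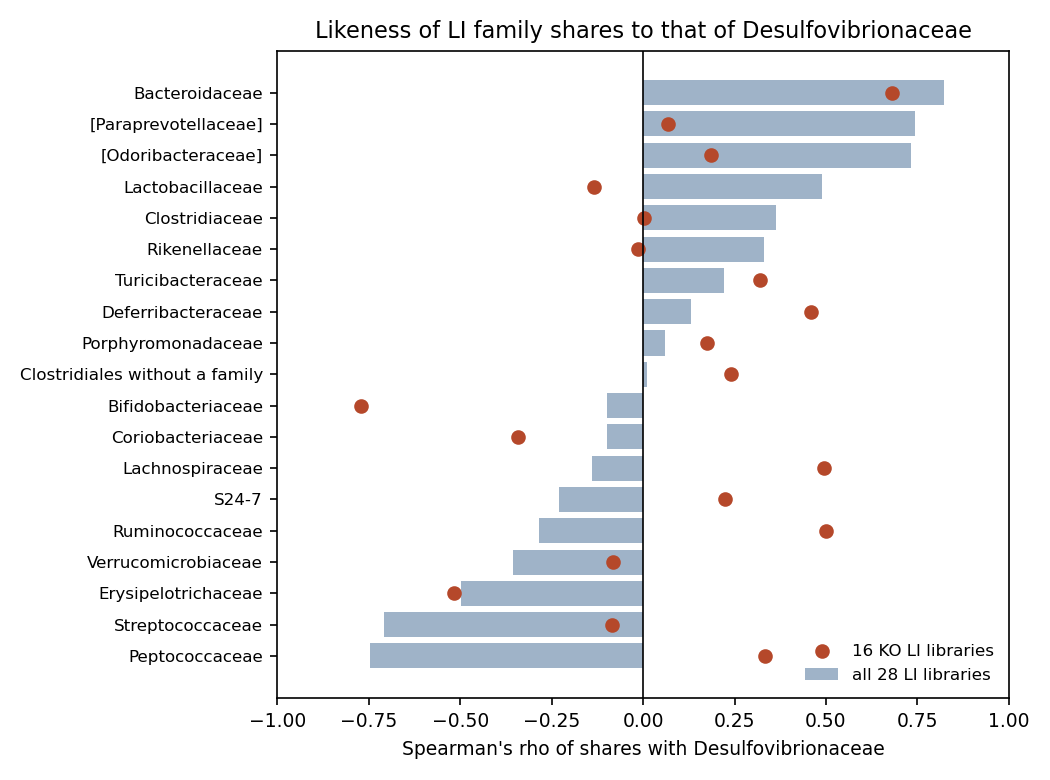
Spearman's rho between the LI share of Desulfovibrionaceae and that of 19 other families, given as a description. Bars are over 28 LI libraries and points over the 16 KO LI libraries of both diets. Bacteroidaceae keep a high value in both (0.82 and 0.68), while [Paraprevotellaceae] fall from 0.74 to 0.07 and Bifidobacteriaceae from -0.10 to -0.77.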

How the data were processed

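The V3–V4 region of the 16S rRNA gene was amplified from freeze-dried gut contents and sequenced as paired reads. Primers were found and cut with FASTX-Toolkit 0.0.14, low quality was removed with Sickle 1.33, and the authors joined pairs in FLASH 1.2.11, denoised them by DADA2 (QIIME 2 2021.4) and named taxa from Greengenes 13_8. The deposited table holds raw counts of 938 ASVs in 56 libraries, not normalized. All values were whole, and the smallest count above 0 was 2. A V3–V4 fragment names few ASVs to species, and read shares depend on primers and on 16S gene copies per cell. Names are those of this database version.

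Counts were summed per lineage and divided by library totals. ASVs without a phylum (8, at most 0.0913% of a library) stayed in the totals. The quasi-likelihood test of edgeR 4.0.16, in R 4.3.3, compared groups, scaled by library totals. A taxon entered a fit when its mean share reached 0.01% and 4 or more libraries had counts, with Benjamini-Hochberg adjustment over all taxa of the rank and a threshold of 0.05. The SE is the log2 fold change divided by the square root of F. A fitted fold against a group at 0 depends on the prior count, so that bounds are printed. Alternatives were TMM factors, DESeq2 1.42.0, limma 3.58.1 on centred log ratios (0.5 added), no filter, exact rank-sum or sign-flip tests, all 4 groups in 1 fit, a block for the replicate number, and leaving out each library. Of the fits, only those of KO-WD against WT-ND and against KO-ND mice in the LI were tried on simulated counts. The fits between sites were not. Tables were made in Python 3.11.15 (pandas 2.3.3) and plots in matplotlib 3.10.9.

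Libraries of SI and LI with the same group and number were taken as 1 mouse. Their deviations from group means correlated above 0.1 in 27 of 28 mice (0.07 to 0.71), and the mouse was the block of the comparison between sites. Of the 28, 22 were most alike to their own number, but in KO-WD mice only 4 of 8 were, so the pairing is less sure there. The members, the lists and the alternatives were chosen with earlier results of these data known. Every class and family was described, and an ASV was named if it reached 0.1% of a library or passed a test. The 5 most and 3 least similar families were named, and Bifidobacteriaceae beside them after their values were seen. P-values measure the spread between these mice.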

Additional observations from a re-analysis of the deposited data

Results flagged for a closer look

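In groups of 6 or 8 libraries, a library was singled out when its gap to the nearest other value was large against the range of its group (Dixon's criterion). This was done for Proteobacteria and 4 of its taxa in 24 groups that had any count, and 10 were singled out. The limit of the criterion is meant to single out about 1 in 20 groups by chance. That rate cannot be set against the 10, because many libraries had no counts of a taxon. The counts of the 4 taxa are also part of those of Proteobacteria, so the groups are not independent. Where only 1 library of a group has counts, it is always singled out.

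KO-WD replicate 5 stood apart in the LI for Proteobacteria (17.2%, next 4.41%), Desulfovibrionaceae (16.6%, next 4.41%) and Alcaligenaceae (0.582%, next 0), and in the SI for Alcaligenaceae (0.205%, next 0). For Alcaligenaceae it was the only library of its group with counts at either site. KO-ND replicate 7 stood apart in the SI for Proteobacteria (0.587%, next 0.189%) and Desulfovibrionaceae (0.587%, next 0.154%). KO-ND replicate 5 stood apart in the LI for RF32 (0.150%, next 0.0438%). The remaining 3 were likewise the only libraries of their group with counts, all in the SI: KO-WD replicate 3 for Desulfovibrionaceae (0.00841%), WT-ND replicate 2 for Alcaligenaceae (0.0233%) and KO-ND replicate 3 for Enterobacteriaceae (0.0146%).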

How the results depend on the processing

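For Desulfovibrionaceae and the number of Proteobacteria ASVs that passed, 312 of 340 alternative values kept direction and side of the threshold (counts within 1.5 times). For other named taxa 525 of 588 did, with 34 calls lost, 1 gained and 28 directions turned. Of the values that held, 211 and 352 came from leaving out 1 library or mouse, and other alternatives held less often. Fits in which a taxon became too rare to be tested gave no value and are not counted, so these totals overstate how well calls on rare taxa held. The values below are adjusted p unless said otherwise, and the causes were not tested.

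Same-numbered libraries of different groups did not deviate together (22 of 76 pairs above 0.1, -0.48 to 0.49, and 11 of 76 most alike to their own number), so the number pairs no mice. With the replicate block, Desulfovibrionaceae in the LI gave 0.0722 for KO-WD against WT-ND and 0.0748 for KO-WD against WT-WD mice, and the ASVs that passed were 1 in place of 2 for KO-WD against WT-ND, 1 in place of 2 for KO-ND against WT-ND and 1 in place of 3 for KO-WD against WT-WD mice. With the block, KO-WD against KO-ND in the LI turned downward for Alcaligenaceae (0.514) and ASV_198 (0.649) and upward for ASV_408 (0.998). Without the mouse as a block, 2 ASVs in place of 1 passed for LI against SI in KO-WD mice, and LI against SI in WT-WD mice turned for Enterobacteriaceae (0.708) and ASV_240 (0.816).

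Desulfovibrionaceae in the SI, KO-WD against KO-ND, passed with all 4 groups in 1 fit (0.0355), and ranged from 0.0483 to 0.109 with 1 library left out. With no filter, the Proteobacteria ASVs that passed in the SI were 1 in place of 0 for KO-WD against WT-WD and 7 in place of 0 for KO-WD against KO-ND mice. In the LI they were 5 in place of 2 for KO-WD and for KO-ND against WT-ND mice, 1 in place of 0 for KO-WD against KO-ND mice, and 1 in place of 2 for LI against SI in KO-ND mice. For KO-ND against WT-ND mice in the LI, 1 passed with limma on centred log ratios, 1 with the exact rank-sum test, and 1 to 3 with 1 library left out. For LI against SI in KO-ND mice, 1 passed with DESeq2, 1 with centred log ratios, 1 with the exact sign-flip test, and 1 to 2 with 1 mouse left out. For LI against SI in KO-WD mice the sign-flip test passed 0 in place of 1, with ASV_013 higher in the LI of 8 of 8 mice and so at the smallest p this test allows. For ASV_198, with counts in 4 of 8 KO-ND mice, neither exact test could pass.

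Enterobacteriaceae turned upward for KO-WD against WT-WD in the SI with DESeq2 (0.858) and centred log ratios (0.561). For LI against SI in WT-WD mice they turned downward with DESeq2 (0.779), centred log ratios (0.228) and the sign-flip test (0.521), and ranged from 0.633 to 0.971 with 1 mouse left out, turning without replicate 2 or 4. ASV_240 turned there with TMM factors (0.995), DESeq2 (0.737), centred log ratios (0.209) and the sign-flip test (0.561), and ranged from 0.727 to 0.986. For KO-WD against KO-ND in the LI, centred log ratios turned Alcaligenaceae (0.719) and ASV_198 (0.629), and TMM factors turned RF32 (0.911). With 1 library left out the ranges were 0.0703 to 0.994 for Alcaligenaceae, 0.167 to 1.00 for ASV_198 (both turned without KO-WD replicate 5) and 0.700 to 0.994 for RF32 (turned without KO-ND replicate 5). Centred log ratios also turned LI against SI in KO-ND mice for Alcaligenaceae (0.447), RF32 (0.162) and ASV_198 (0.921), and in KO-WD mice for ASV_324 (0.920).

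Low counts limit all taxa but ASV_013: most others rest on under 100 counts in a few mice, and absence below the share of 3 counts could not be seen. DESeq2 gave no adjusted p for 5 values, which were left out.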
